A study of Homo sapiens with 6 samples.

Results

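The genes described here are 33 markers of the epithelial and the mesenchymal state, 16 epithelial and 17 mesenchymal, among the 54532 gene IDs measured in the series. They were chosen by name as textbook markers of either state, with earlier results of these data known. All 33 IDs are listed for every library. The libraries were made from cells labelled A549, an established human lung adenocarcinoma line, in groups labelled NC, sh1 and sh4 with 2 libraries each. The series title names a knockdown of DSTY, and sh1 and sh4 are taken here as separate knockdown groups and NC as their control, although the labels spell out none of these names. All 3 groups share the cell line label, no other treatment, time or genotype is given, and nothing says whether the libraries of a group came from separate cultures, so p-values measure the spread between these libraries, which may be technical. All IDs carry Ensembl's mouse prefix while the labels state human cells, and this conflict is unresolved. The names used below are Ensembl's mouse names for the IDs, supplied with the list of members and not by the files. The level of the targeted gene was not analysed here.

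Epithelial cells are held together by adherens junctions built on E-cadherin, by tight junctions that seal the space between cells and by desmosomes anchored to keratin filaments. In the epithelial-mesenchymal transition, transcription factors of the Snail, Zeb and Twist families repress junction genes, and cells come to express N-cadherin, vimentin and proteins of the extracellular matrix. The transition is known in lung carcinoma as a graded process, in which cells can carry markers of both states.

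Levels are given in FPKM (fragments counted per kilobase of gene length and adjusted for library depth), so levels of different genes can be set side by side. Between 14998367 and 18010432 reads per library were recovered from the deposited values, and 1 read in a gene of median length equals 0.0201 to 0.0242 FPKM. Differences between groups are on the scale of log2(FPKM + 1), which understates changes of low genes. They were tested with limma over all 12755 IDs that reached 1 FPKM in at least 2 libraries, and a member is called where the Benjamini-Hochberg adjusted p was below 0.05. In bulk libraries such as these, fewer cells of a type and less RNA per cell cannot be told apart.

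Members of both lists were at high level in every library, those on the epithelial side being keratins. Averaged over the 6 libraries, Vim (ENSMUSG00000026728), which encodes the intermediate filament protein of mesenchymal cells, ranked 33 among all IDs with 949.6 FPKM. Fibronectin, Fn1 (ENSMUSG00000026193), ranked 77 with 495.0 FPKM, and next to it stood the simple-epithelial keratin Krt18 (ENSMUSG00000023043) at rank 78 with 493.6 FPKM. Its filament partner Krt8 (ENSMUSG00000049382) ranked 95 and Krt19 (ENSMUSG00000020911) ranked 137. In all, 7 members had a mean of at least 100 FPKM, the other two being the matrix gene Sparc (ENSMUSG00000018593) and the transcription factor gene Twist1 (ENSMUSG00000035799).

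At the other end of the scale, 10 members did not reach 1 FPKM in 2 libraries and were not tested. Of these, 9 were epithelial: Epcam (ENSMUSG00000045394), Cldn3 (ENSMUSG00000070473), Cldn4 (ENSMUSG00000047501), Cldn7 (ENSMUSG00000018569), Ocln (ENSMUSG00000021638), Dsp (ENSMUSG00000054889), Krt7 (ENSMUSG00000023039), Esrp1 (ENSMUSG00000040728) and Grhl2 (ENSMUSG00000022286). The only mesenchymal member not tested was Col1a2 (ENSMUSG00000029661). Of the 6 genes set as markers of epithelial carcinoma cells, 4 (Cdh1, Krt8, Krt18 and Krt19) were at 5 FPKM or more in every library. Cdh1 passed that level narrowly in NC, at 5.43 and 5.80 FPKM. The remaining markers, Epcam and Krt7, reached at most 1.07 and 0.966 FPKM in any library, so the 6 markers did not stand at a like level.

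**Figure D1:**
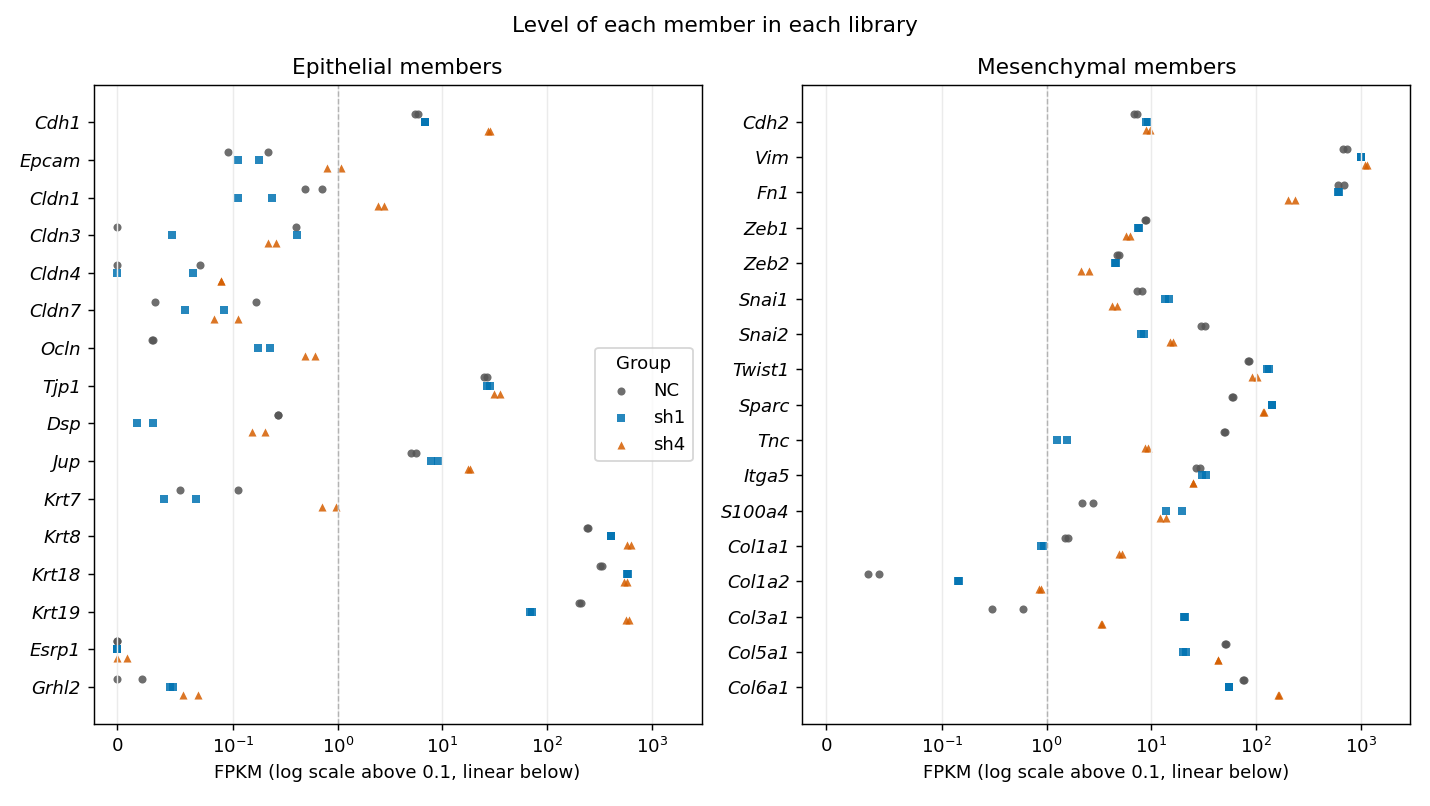
Level of each of the 33 members in FPKM (horizontal axis, logarithmic above 0.1 and linear below), with a point for each of the 6 libraries and the groups told apart by colour and shape. The dashed line marks 1 FPKM. The keratins Krt8, Krt18 and Krt19 and the mesenchymal genes Vim and Fn1 lie far to the right, while 9 of the 16 epithelial members lie left of the line in nearly all libraries.

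The comparison of sh4 with NC asked which markers differ when the sh4 group is set against its control. All 7 tested epithelial members were higher in sh4, and the 16 tested mesenchymal members divided into 8 higher and 8 lower. Of these, Cldn1 entered the tests only through its level in sh4 and Col3a1 only through its levels in sh1 and sh4, so the filter itself bore on their calls. Among all IDs tested, 68.2% were called in this comparison, 35.0% higher and 33.2% lower. A difference of at least 1 log2 unit was found for 5 epithelial members, all higher, and for 6 mesenchymal members, 4 higher and 2 lower. The share of all IDs past that size was 10.1%. The median difference was 1.30 log2 units over the 7 tested epithelial members and 0.02 over the 16 mesenchymal members, beside 0.01 over all IDs.

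In sh1 the epithelial members moved in both directions. Against NC, 4 of the 7 tested epithelial members were higher, 2 were lower and 1 was not called. Of the 16 tested mesenchymal members, 8 were higher, 6 were lower and 2 were not called. The shares among all IDs were 65.5% called, 32.4% higher and 33.2% lower. Differences of at least 1 log2 unit were seen for 1 epithelial member, which was lower, and for 6 mesenchymal members, 3 in each direction, beside 9.96% of all IDs. Col3a1 is among those higher and entered the tests only through its levels in sh1 and sh4, so the filter itself bore on its call. The median difference was 0.25 log2 units over the tested epithelial members and 0.05 over the mesenchymal members, beside -0.01 over all IDs.

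The knockdown groups were then set against each other. Of the epithelial members, 6 were higher in sh4, none was lower and 1 was not called (Krt18). Of the mesenchymal members, 6 were higher in sh4, 8 were lower and 2 were not called (Cdh2 and S100a4). Among all IDs, 56.0% were called, 29.5% higher and 26.4% lower in sh4, and 6.34% were called with at least 1 log2 unit. That size was passed by 4 epithelial members, all higher in sh4, and by 7 mesenchymal members, 4 higher and 3 lower. Cldn1 is among these epithelial members and entered the tests only through its level in sh4, so the filter itself bore on its call.

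**Figure D2:**
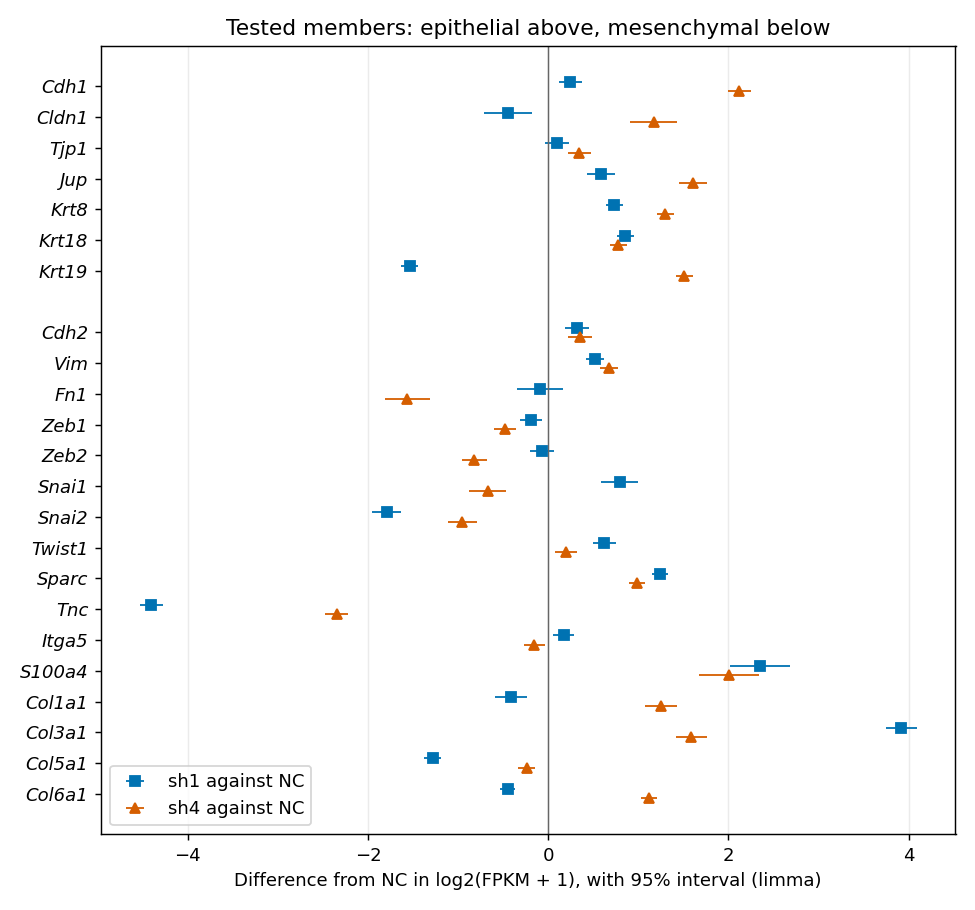
Difference from NC in log2(FPKM + 1) for the 23 tested members (horizontal axis), epithelial members above and mesenchymal members below, for sh1 (squares) and sh4 (triangles) with 95% intervals from limma. All 7 epithelial members lie right of 0 for sh4, whereas Krt19 lies at -1.54 for sh1 and 1.51 for sh4. Both comparisons use the same NC libraries.

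E-cadherin, Cdh1 (ENSMUSG00000000303), forms the adherens junction of epithelia. Its level was 5.43 and 5.80 FPKM in NC, 6.87 and 6.83 in sh1, and 27.2 and 28.4 in sh4. The sh4 libraries stood far above the other 4, and the sh1 libraries stood slightly above NC without overlap. The mean in sh4 was 4.95 times that in NC (log2 difference 2.12, SE 0.06, limma adjusted p = 8.64e-12). In sh1 the mean was 1.22 times that in NC (0.25, SE 0.06, limma adjusted p = 0.0022), and sh4 exceeded sh1 by 1.87 log2 units (limma adjusted p = 3.01e-11).

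N-cadherin, Cdh2 (ENSMUSG00000024304), is the cadherin that mesenchymal cells carry in place of E-cadherin. Its level was 6.80 and 7.32 FPKM in NC, 8.93 and 9.21 in sh1, and 8.95 and 9.73 in sh4. Both knockdown groups lay above NC, by 0.32 log2 units in sh1 (limma adjusted p = 4.3e-04) and 0.36 in sh4 (limma adjusted p = 1.7e-04), and overlapped with each other. The difference between sh4 and sh1 was 0.04 with a 95% interval from -0.10 to 0.17 (limma adjusted p = 0.64). Set side by side, Cdh1 stood at 0.798 and 0.792 times the level of Cdh2 in NC and at 0.769 and 0.741 times in sh1. In sh4 it stood at 3.04 and 2.91 times, so the order of the cadherins was turned in that group alone of the 3, and both cadherins were above their NC level there.

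Plakoglobin, Jup (ENSMUSG00000001552), links cadherins to the cytoskeleton in adherens junctions and desmosomes. It was at 5.04 and 5.56 FPKM in NC, 7.84 and 9.17 in sh1, and 18.6 and 17.7 in sh4. The 3 groups were separate, with sh1 between NC and sh4. Its log2 difference from NC was 0.59 in sh1 (SE 0.07, limma adjusted p = 8.1e-06) and 1.60 in sh4 (SE 0.07, limma adjusted p = 5.65e-10). Tjp1 (ENSMUSG00000030516), the junction scaffold ZO-1, varied little. It ranged from 25.1 to 26.5 FPKM in NC, from 26.8 to 28.5 in sh1 and from 31.0 to 35.5 in sh4. Only its difference between sh4 and NC (0.35, limma adjusted p = 2.0e-04) and between sh4 and sh1 (0.25, limma adjusted p = 0.0031) passed, and the latter did not with no filter on low values (adjusted p = 0.086) and was 0.16 without sh4 replicate 2. In sh1 the difference from NC was 0.10, with a 95% interval from -0.04 to 0.23.

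Tight junction strand proteins were scarce. The 4 claudin members together held 0.919 and 0.953 FPKM in NC, 0.317 and 0.699 in sh1, and 2.87 and 3.16 in sh4. Cldn1 (ENSMUSG00000022512), which made up most of that sum in sh4, counted 37 and 53 reads in NC, 9 and 20 in sh1, and 218 and 244 in sh4. These correspond to 0.484 and 0.714, 0.111 and 0.235, and 2.44 and 2.75 FPKM. No library overlapped between groups, and the order was sh1, NC, sh4. Cldn1 entered the tests only through its level in sh4, so its difference there (log2 1.17, limma adjusted p = 1.9e-06) is given as a description. The difference between sh1 and NC was -0.45 (limma adjusted p = 0.0059). It was no longer called without NC replicate 2 (-0.34, adjusted p = 0.058) or without sh1 replicate 1 (-0.37, adjusted p = 0.051), and Cldn1 was not tested when either sh4 library was left out. With a pseudocount of 0.1 the values were -1.37 in sh1 and 1.96 in sh4, and 3.34 between sh4 and sh1.

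The other claudins were near the limit of detection. Cldn3 had 0 to 9 reads per library, Cldn4 had 0 to 3 and Cldn7 had 1 to 5. Only Cldn4 had both sh4 libraries above all others, with 3 reads each, and its read frequency in sh4 relative to NC had a counting interval from 0.453 to 25.7 times. Occludin, Ocln, another strand protein, had 2 reads in each NC library, 16 and 13 in sh1, and 47 and 38 in sh4. Over the summed reads and corrected for depth, Ocln was 18.0 times as frequent in sh4 as in NC (95% interval of counting error alone 6.76 to 67.4) and 6.57 times in sh1 (2.31 to 25.7). With no filter on low values, limma called Ocln higher in sh4 (adjusted p = 0.0036) and did not call it in sh1 (adjusted p = 0.074).

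Epcam, a surface adhesion protein of carcinoma cells, had 7 and 3 reads in NC, 6 and 4 in sh1, and 30 and 40 in sh4. Its read frequency in sh4 was 5.92 times that in NC (counting interval 3.03 to 12.9), and in sh1 it was 0.907 times that in NC (0.339 to 2.43). Desmoplakin, Dsp, which ties keratins to the desmosome, had 41 and 40 reads in NC, 5 and 3 in sh1, and 27 and 36 in sh4. It was thus the epithelial member with fewer reads in both knockdown groups, at 0.0896 times the NC frequency in sh1 (0.0374 to 0.185) and 0.657 times in sh4 (0.465 to 0.925). With no filter, limma called Dsp lower in sh1 (adjusted p = 0.017) and did not call it in sh4 (adjusted p = 0.26), while Epcam was called higher in sh4 (adjusted p = 0.0066).

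Regulators of the epithelial programme were at or near 0. Esrp1, an epithelial splicing factor, had 1 read in the 6 libraries together. Grhl2, a transcription factor that maintains epithelial junction genes, had 3 and 0 reads in NC, 7 and 7 in sh1, and 9 and 11 in sh4. Its read frequency relative to NC was 5.64 times in sh4 (counting interval 1.67 to 29.6) and 4.23 times in sh1 (1.18 to 23.0). With no filter, limma called Grhl2 in neither group (adjusted p = 0.39 and 0.54).

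Keratins of simple epithelia made up the abundant epithelial members, and they did not move as a block. Krt8 and Krt18 pair into the same filaments. Krt8 was at 245.7 and 242.0 FPKM in NC, 406.7 and 405.4 in sh1, and 628.9 and 577.5 in sh4. Each group was separate, and Krt8 exceeded NC by 0.73 log2 units in sh1 (SE 0.04, limma adjusted p = 8.7e-09) and 1.30 in sh4 (SE 0.04, limma adjusted p = 4.92e-11). Krt18 was at 333.7 and 319.9 FPKM in NC, 599.0 and 584.0 in sh1, and 580.2 and 544.7 in sh4. It exceeded NC by 0.85 log2 units in sh1 and 0.78 in sh4 (SE 0.04 for both, limma adjusted p = 1.7e-09 and 4.7e-09). Between sh4 and sh1 the difference in Krt18 was -0.07, with a 95% interval from -0.17 to 0.02 (limma adjusted p = 0.17). The level of Krt8 relative to Krt18 was 0.736 and 0.756 in NC, 0.679 and 0.694 in sh1, and 1.08 and 1.06 in sh4.

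Krt19, a type I keratin like Krt18, went in opposite directions in the knockdown groups. It was at 209.7 and 201.7 FPKM in NC, 71.3 and 69.0 in sh1, and 603.7 and 572.3 in sh4. The groups were far apart, with sh1 below and sh4 above NC. Its log2 difference from NC was -1.54 in sh1 (SE 0.04, limma adjusted p = 5.85e-12) and 1.51 in sh4 (SE 0.04, limma adjusted p = 1.14e-11), and 3.05 between sh4 and sh1. Relative to Krt18, Krt19 stood at 0.628 and 0.630 in NC, 0.119 and 0.118 in sh1, and 1.04 and 1.05 in sh4. The summed level of these 3 keratins was 789.0 and 763.6 FPKM in NC, 1077 and 1058 in sh1, and 1813 and 1695 in sh4. Krt8 and Krt18 have processed pseudogenes of similar sequence, and how reads common to gene and copy were counted is not given in the sources used here.

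Krt7, a type II keratin of glandular epithelia, stayed low. It had 6 and 12 reads in NC, 8 and 5 in sh1, and 93 and 125 in sh4. The frequency in sh4 was 10.2 times that in NC (counting interval 6.33 to 17.6), and in sh1 it was 0.655 times that in NC (0.295 to 1.41). With no filter, limma called Krt7 higher in sh4 (adjusted p = 0.0038) and did not call it in sh1 (adjusted p = 0.82).

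**Figure D3:**
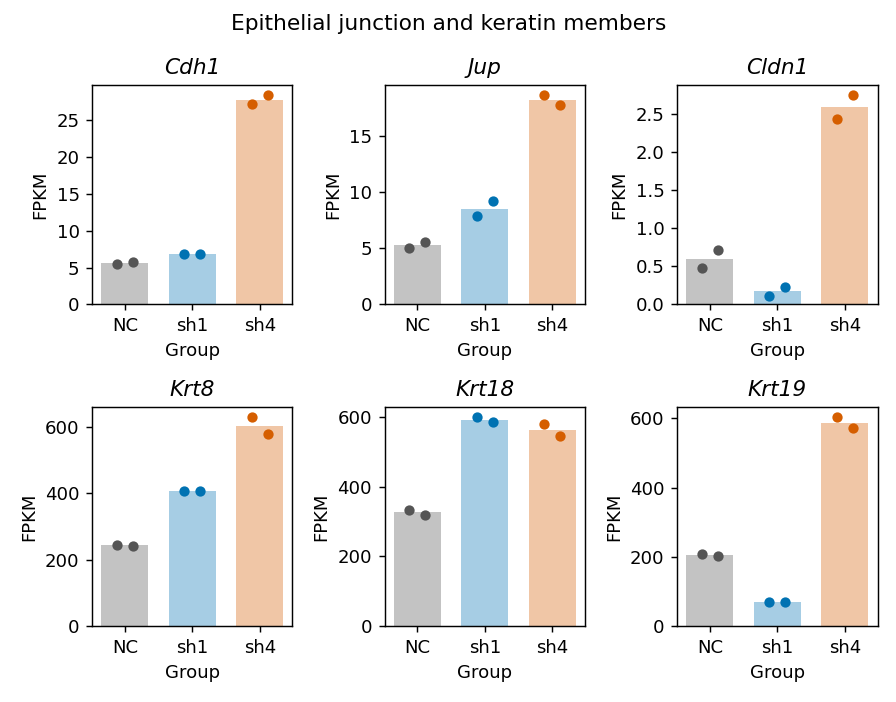
FPKM (vertical axes, each from 0) of 6 epithelial members by group, with a point for each library and a bar for the mean of the 2. Cdh1 and Jup are highest in sh4, Krt8 rises from NC over sh1 to sh4, Krt18 is at a like level in sh1 and sh4, and Krt19 and Cldn1 are lowest in sh1 and highest in sh4.

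Among the transcription factors, the Snail family genes gave the clearest contrast. Snai1 (ENSMUSG00000042821) and Snai2 (ENSMUSG00000022676) encode Snail and Slug, zinc finger repressors of E-cadherin. Snai1 was at 7.31 and 8.13 FPKM in NC, 14.8 and 13.4 in sh1, and 4.71 and 4.24 in sh4. It was thus higher than NC in sh1 (log2 0.80, SE 0.09, limma adjusted p = 6.5e-06) and lower in sh4 (-0.67, SE 0.09, limma adjusted p = 3.2e-05), with no overlap between the groups. Snai2 was at 29.6 and 32.4 FPKM in NC, 7.94 and 8.51 in sh1, and 15.0 and 16.0 in sh4. It was lower than NC in both, by -1.79 log2 units in sh1 (SE 0.07, limma adjusted p = 2.10e-10) and -0.95 in sh4 (SE 0.07, limma adjusted p = 1.1e-07), and sh1 lay below sh4. Snai1 stood at 0.247 and 0.251 times the level of Snai2 in NC and at 0.313 and 0.265 times in sh4. In sh1 it stood at 1.87 and 1.58 times, which made Snai1 the more abundant of the pair only in that group of the 3.

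The Zeb factors, which repress E-cadherin and other junction genes, were lowest in sh4. Zeb1 (ENSMUSG00000024238) was at 8.72 and 8.87 FPKM in NC, 7.63 and 7.52 in sh1, and 5.76 and 6.31 in sh4. Zeb2 (ENSMUSG00000026872) was at 4.95 and 4.73 FPKM in NC, 4.55 and 4.59 in sh1, and 2.12 and 2.52 in sh4. Against NC, sh4 was lower by -0.48 log2 units for Zeb1 (limma adjusted p = 6.9e-06) and -0.82 for Zeb2 (limma adjusted p = 1.1e-07). In sh1, Zeb1 was lower by -0.19 (limma adjusted p = 0.0096), a call lost without sh1 replicate 2 (-0.18, adjusted p = 0.063), and Zeb2 was not called (-0.07, 95% interval -0.21 to 0.07). Both were lower in sh4 than in sh1 (-0.29 and -0.75, limma adjusted p = 8.4e-04 and 4.0e-07), with -0.18 for Zeb1 under equal FPKM sums.

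Twist1, a basic helix-loop-helix factor of mesenchymal cells, was the most abundant of the 5 factors in every library. It was at 85.1 and 83.6 FPKM in NC, 133.5 and 127.5 in sh1, and 102.9 and 91.1 in sh4. In sh1 it exceeded NC by 0.62 log2 units (SE 0.06, limma adjusted p = 5.5e-07). The excess of 0.20 in sh4 (limma adjusted p = 0.0082) was not called without sh4 replicate 1 (0.11, adjusted p = 0.087) or with no filter (adjusted p = 0.091). The 5 factors together summed to 135.7 and 137.7 FPKM in NC, 168.5 and 161.6 in sh1, and 130.5 and 120.1 in sh4, a sum made up mostly of Twist1.

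**Figure D4:**
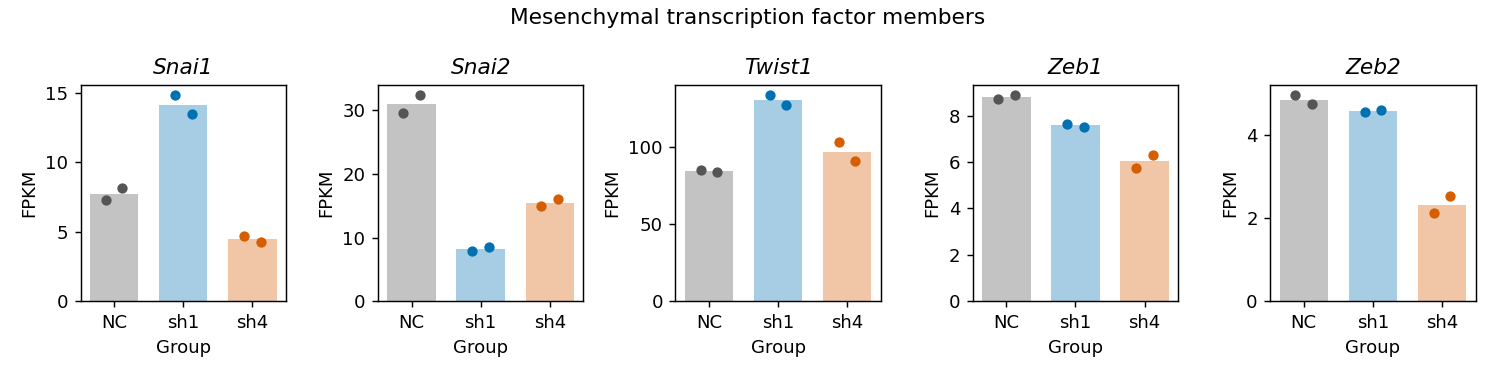
FPKM (vertical axes, each from 0) of the 5 transcription factor members by group, with a point for each library and a bar for the mean of the 2. Snai1 is highest in sh1 and lowest in sh4, Snai2 is lower than NC in both knockdown groups, Twist1 is highest in sh1, and Zeb1 and Zeb2 are lowest in sh4.

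Of the cytoskeletal and surface members, Vim was higher than NC in both knockdown groups. It was at 736.8 and 677.7 FPKM in NC, 1020 and 1006 in sh1, and 1164 and 1094 in sh4, with no overlap. The log2 difference from NC was 0.52 in sh1 (SE 0.05, limma adjusted p = 3.2e-07) and 0.67 in sh4 (SE 0.05, limma adjusted p = 2.6e-08). The excess of sh4 over sh1, 0.16 (limma adjusted p = 0.010), was not called with no filter (adjusted p = 0.11), nor without sh1 replicate 1 (0.17, adjusted p = 0.065), sh1 replicate 2 (0.15, adjusted p = 0.10) or sh4 replicate 1 (0.11, adjusted p = 0.068). Scaling by read totals gave 0.24 and equal FPKM sums gave 0.28.

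S100a4 (ENSMUSG00000001020), a calcium-binding protein also called fibroblast-specific protein, was the mesenchymal member with the next largest rise after Col3a1 in sh1. It was at 2.17 and 2.79 FPKM in NC, 13.9 and 19.8 in sh1, and 12.1 and 13.8 in sh4, from 20 and 25 reads in NC to 130 or more in each knockdown library. Both knockdown groups were clear of NC, by 2.35 log2 units in sh1 (SE 0.15, limma adjusted p = 1.9e-08) and 2.00 in sh4 (SE 0.15, limma adjusted p = 9.7e-08). Between sh4 and sh1 the difference of -0.34 was not called (limma adjusted p = 0.074). It was called with the replicate block (adjusted p = 0.021) and without sh1 replicate 1 (-0.58, adjusted p = 0.011), and it was -0.10 without sh1 replicate 2 (adjusted p = 0.65). Integrin alpha 5, Itga5 (ENSMUSG00000000555), a subunit of the fibronectin receptor, hardly moved. It was at 29.3 and 27.0 FPKM in NC, 30.7 and 32.99 in sh1, and 25.2 in both sh4 libraries. Its differences from NC of 0.17 in sh1 and -0.15 in sh4 (limma adjusted p = 0.012 and 0.023) were not called after rescaling to equal FPKM sums (0.10 and -0.11, adjusted p = 0.19 and 0.14) or with no filter (adjusted p = 0.078 and 0.11), and the value in sh1 was not called under scaling by read totals (0.11, adjusted p = 0.079). Leaving out single libraries ended these calls too. In sh1 the value was 0.12 without NC replicate 2 (adjusted p = 0.13) and 0.12 without sh1 replicate 2 (adjusted p = 0.15). In sh4 it was -0.10 without NC replicate 1 (adjusted p = 0.20) and -0.15 without either sh4 library (adjusted p = 0.059 and 0.060).

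Matrix genes moved in several patterns. Fibronectin, Fn1, a glycoprotein that cells bind through integrins, was at 604.0 and 701.5 FPKM in NC, 606.2 and 618.1 in sh1, and 202.2 and 238.1 in sh4. NC and sh1 overlapped while sh4 was far below both. The log2 difference from NC was -1.56 in sh4 (SE 0.10, limma adjusted p = 3.4e-05) and -0.09 in sh1 (95% interval -0.34 to 0.16, limma adjusted p = 0.48). The value in sh1 turned on the NC libraries, with -0.20 without NC replicate 1 (adjusted p = 0.0499) and 0.02 without NC replicate 2 (adjusted p = 0.85). By share of recovered reads, Fn1 took 0.723% and 0.838% of NC, 0.696% and 0.706% of sh1, and 0.243% and 0.290% of sh4. Relative to Vim, Fn1 stood at 0.820 and 1.04 in NC, 0.594 and 0.615 in sh1, and 0.174 and 0.218 in sh4.

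Tenascin C, Tnc (ENSMUSG00000028364), a matrix protein of developing and injured tissue, was the member with the largest fall. It was at 49.3 and 50.5 FPKM in NC, 1.26 and 1.55 in sh1, and 8.72 and 9.30 in sh4. In reads this was 6045 and 6014 in NC, 164 and 212 in sh1, and 1251 and 1327 in sh4. The NC mean was 35.5 times the sh1 mean (log2 difference -4.40, SE 0.06, limma adjusted p = 8.05e-15) and 5.53 times the sh4 mean (-2.35, SE 0.06, limma adjusted p = 4.37e-12). Sparc, a collagen-binding secreted protein also called osteonectin, moved the other way. It was at 58.8 and 59.98 FPKM in NC, 141.4 and 142.4 in sh1, and 119.9 and 117.1 in sh4, or 1.24 log2 units above NC in sh1 and 0.98 in sh4 (SE 0.04 for both, limma adjusted p = 1.95e-11 and 2.34e-10). The level of Tnc relative to Sparc was 0.838 and 0.841 in NC, 0.0089 and 0.011 in sh1, and 0.073 and 0.079 in sh4.

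Collagen members did not move together. Col3a1 (ENSMUSG00000026043), the chain of fibrillar type III collagen, had 93 and 45 reads in NC, 3415 and 3591 in sh1, and 614 and 590 in sh4. Its level was 0.6001 and 0.299 FPKM in NC, 20.8 in both sh1 libraries, and 3.39 and 3.28 in sh4. The sh1 mean was 46.3 times and the sh4 mean 7.41 times the NC mean, with log2 differences of 3.92 and 1.59 (SE 0.08 for both, limma adjusted p = 3.12e-13 and 2.02e-09). Col3a1 entered the tests through its level in the knockdown groups, so these tests are descriptions. The value in sh4 was 2.70 with a pseudocount of 0.1 and 2.96 by voom on the recovered reads.

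The type I collagen chains were highest in sh4 instead. Col1a1 (ENSMUSG00000001506) was at 1.58 and 1.51 FPKM in NC, 0.939 and 0.891 in sh1, and 5.23 and 4.88 in sh4. It was lower than NC in sh1 (-0.41, SE 0.08, limma adjusted p = 6.2e-04) and higher in sh4 (1.25, SE 0.08, limma adjusted p = 2.2e-08), and the difference in sh1 was -0.70 with a pseudocount of 0.1. Col1a2, which forms the same fibril with Col1a1, had 9 and 7 reads in NC, 30 and 31 in sh1, and 203 and 191 in sh4. Its frequency relative to NC was 20.8 times in sh4 (counting interval 12.7 to 36.8) and 3.46 times in sh1 (1.97 to 6.42). With no filter, limma called Col1a2 higher in sh4 (adjusted p = 6.5e-04) and did not call it in sh1 (adjusted p = 0.14). Col3a1 stood at 0.379 and 0.198 times the level of Col1a1 in NC, 22.2 and 23.3 times in sh1, and 0.648 and 0.671 times in sh4.

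Col5a1 (ENSMUSG00000026837), which nucleates collagen fibrils, was at 52.2 and 50.9 FPKM in NC, 21.2 and 20.1 in sh1, and 43.6 in both sh4 libraries. It was lower than NC in sh1 by -1.28 log2 units (SE 0.04, limma adjusted p = 3.14e-11) and in sh4 by -0.24 (SE 0.04, limma adjusted p = 3.0e-04). Col6a1 (ENSMUSG00000001119), a chain of beaded-filament type VI collagen, was at 76.4 and 74.7 FPKM in NC, 54.8 and 55.5 in sh1, and 164.0 and 167.3 in sh4. It was lower in sh1 (-0.45, SE 0.04, limma adjusted p = 3.8e-07) and higher in sh4 (1.12, SE 0.04, limma adjusted p = 7.26e-11). The 5 collagen members together summed to 130.8 and 127.5 FPKM in NC, 97.9 and 97.3 in sh1, and 217.1 and 219.9 in sh4. Among the members, 3 (Col1a1, Col1a2 and Col3a1) had been set as fibroblast markers, and their summed level was 2.23 and 1.85 FPKM in NC, 21.9 and 21.8 in sh1, and 9.50 and 8.99 in sh4. In sh1 this sum was mostly Col3a1 (20.8 FPKM in both libraries), whereas Col1a1 was lower there than in NC. None of the 3 markers was at 0 in any library, and a part of other cells in the matrix results was not tested.

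**Figure D5:**
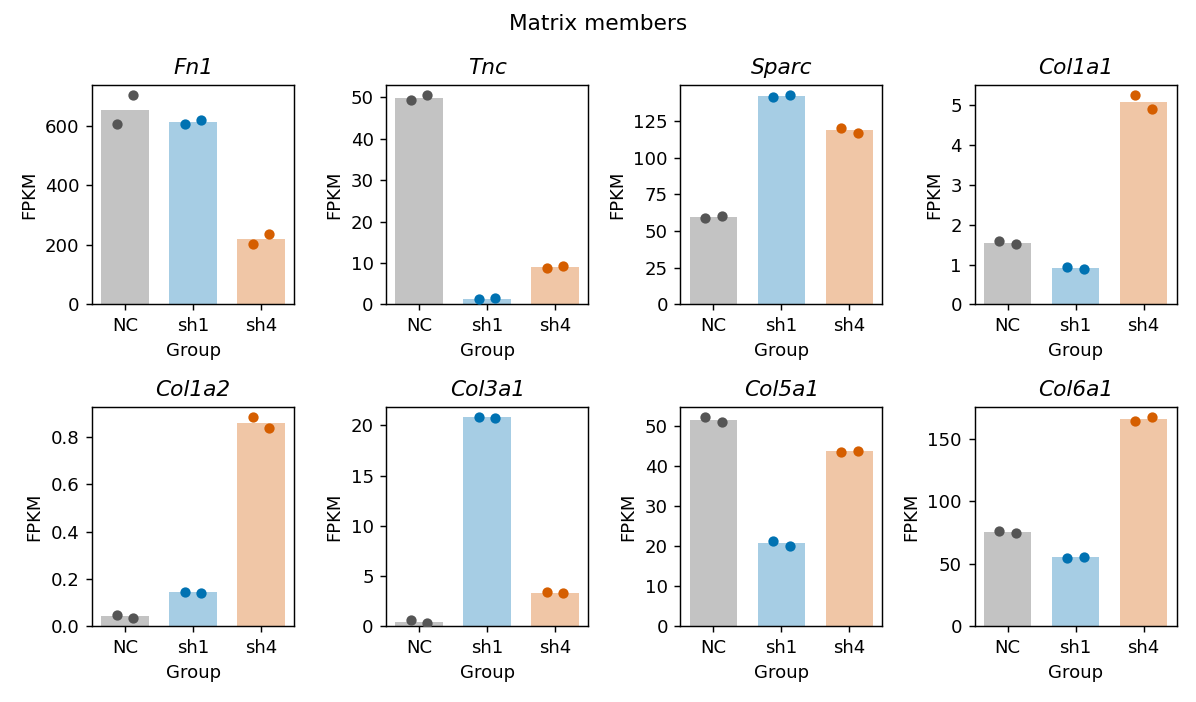
FPKM (vertical axes, each from 0) of 8 matrix members by group, with a point for each library and a bar for the mean of the 2. Col1a2 was too low to be tested. Tnc is lower and Sparc higher than NC in both knockdown groups, Fn1 is lower in sh4, Col3a1 is highest in sh1, and Col1a1, Col1a2 and Col6a1 are highest in sh4.

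Both knockdown groups were compared with the same NC libraries, so calls made in both are not independent of each other. Fn1 and Zeb2 were lower in sh4 and not called in sh1, and for both the direct difference between sh4 and sh1 was past the threshold (-1.48 and -0.75, limma adjusted p = 6.7e-05 and 4.0e-07). In sh4, the rise of E-cadherin, plakoglobin and keratins stood beside lower Snai1, Snai2, Zeb1, Zeb2, Fn1, Tnc, Col5a1 and Itga5. It also stood beside higher Twist1, Vim, Cdh2, Sparc, S100a4, Col1a1, Col3a1 and Col6a1. Among the untested epithelial members, Dsp had fewer reads in sh4 than in NC, while Epcam, Ocln and Krt7 had more. Any link between these differences was not tested. The calls of Twist1 (0.20) and Itga5 (-0.15) in sh4 were each lost under some alternatives. In sh1, lower Snai2 stood beside higher Snai1 and Twist1, and E-cadherin was 1.22 times its NC level.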

How the data were processed

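RNA from 6 libraries was measured, and the deposited files give FPKM per gene ID. HISAT2 2.0.5 and build hg18 are named, per the submitters' processing notes. Counter and annotation: not given in the sources used here. None of the 54532 IDs matched the human gene tables used here, so other pathway genes and other cell type markers were not analysed, and no sequences are shown. Whole reads were recovered for 25746 of 25747 IDs above 0 by searching for whole lengths that rebuilt the deposited FPKM to a relative tolerance of 1e-08. Per the recovered denominators, the FPKM values follow median-of-ratios size factors over the 6 libraries and not read totals. They were thus not scaled for each library alone.

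log2(FPKM + 1) was fitted with limma 3.58.1 in R 4.3.3 over all 6 libraries (3 residual degrees of freedom), with a robust empirical Bayes variance and its trend on mean recovered reads, for IDs that reached 1 FPKM in at least 2 libraries. The fit was also run on simulated data with few changed IDs. Many IDs were called here, so that run does not show its error rate in these libraries. P-values were Benjamini-Hochberg adjusted within each of 3 comparisons. The members and lists were chosen with earlier results of these data known. Per-library values are given for members changed by at least 1 log2 unit in any comparison and for a set of canonical markers; those of the remaining members were added after their values were seen. Counting intervals for untested members are exact binomial (Clopper-Pearson) at 95% and cover counting error only.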

Additional observations from a re-analysis of the deposited data

Results flagged for a closer look

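For 6 members the calls against NC were in opposite directions in sh1 and sh4, and sh4 differed from sh1 by the direct test. The share of all IDs that meet this rule was not counted, so the number of members cannot be judged against it. Of all IDs tested, 65.5% were called in sh1 against NC, 68.2% in sh4 against NC and 56.0% in sh4 against sh1. The log2 difference of sh4 minus sh1 was 3.05 for Krt19, 1.66 for Col1a1 and 1.57 for Col6a1, which were lower than NC in sh1 and higher in sh4. It was -1.47 for Snai1, which was higher than NC in sh1 and lower in sh4. For Cldn1 it was 1.62, a description only, since Cldn1 entered the tests through its level in sh4 and its call in sh1 was lost without NC replicate 2 (-0.34) or sh1 replicate 1 (-0.37). For Itga5 it was -0.33 (-0.21 under equal FPKM sums), and its calls against NC were small and each lost under 5 alternatives.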

How the results depend on the processing

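Over 13 alternatives (another pseudocount, filter, scaling or test, the replicate block, and leaving out each library), 854 of 882 values for single members kept their direction and side of the threshold, 20 lost a call, 4 gained a call and 4 changed sign, none of these 4 past the threshold. The sign changed for Krt18 between sh4 and sh1 under scaling by read totals (0.0074) and under equal FPKM sums (0.0496). Leaving out 1 library gave -0.196 to 0.0191 for Fn1 in sh1 and -0.0179 to 0.0919 for Cdh2 between sh4 and sh1; the cause was not tested. Without sh4 replicate 1, Krt18 was called lower in sh4 than in sh1 (-0.12, adjusted p = 0.040). Rescaling to the mean FPKM sum moved the median of all IDs between sh4 and sh1 to 0.10. With at least 1 log2 unit required, the counts could by construction only fall or stay. Against NC in sh1 they were 0 epithelial members higher and 1 lower, and 3 mesenchymal members higher and 3 lower. For sh4 against NC they were 5 epithelial members higher and 0 lower, and 4 mesenchymal members higher and 2 lower. Between sh4 and sh1 they were 4 epithelial members higher in sh4 and 0 lower, and 4 mesenchymal members higher and 3 lower. With a mean FPKM of at least 5, which removes Cldn1, 1 epithelial member was lower in sh1. Leaving out 1 library gave 1 to 2 epithelial members lower in sh1, and 0 to 1 lower in sh4 than in sh1. With the replicate block, S100a4 was called lower in sh4 than in sh1 (-0.34) and no other call of a tested member changed. The correlation of deviations between libraries that carry the same replicate number was -0.01 (NC with sh1), 0.12 (NC with sh4) and -0.02 (sh1 with sh4), so the numbers do not show a pairing. Few reads limit the untested members to large differences.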
